A study of Arabidopsis thaliana with 36 samples.

Results

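Splicing was compared in the dark between the double mutant swap1sfps (genotype swap1-1sfps-2) and the triple mutant swap1sfpsrrc1 (swap1-1sfps-2rrc1-3), and every region the authors called between them was taken. The table held 188 regions in 160 loci, out of 56407 regions called in the 12 splicing comparisons of the study. Each group had 3 libraries of rRNA-depleted total RNA from Col-0 background seedlings that were 4 days old, had grown without light and stayed dark for another 3 h. Both groups carried the swap1-1 and sfps-2 alleles, and by genotype rrc1-3 alone separated them. The comparison therefore asked what the rrc1-3 allele adds to these 2 mutations. Nothing in the labels ties the 3 libraries of a group to separate cultures, so the authors' FDR values measure only the spread between these libraries. The files give comparisons of whole groups only. Library depth is therefore unknown, and no value here carries an error of its own.

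An intron is removed between a donor site at its 5′ end, which nearly always begins with GT, and an acceptor site at its 3′ end, which ends with AG. The U2 small nuclear ribonucleoprotein binds the branch point shortly before the acceptor, and U2AF binds the run of pyrimidines between them. SFPS and RRC1 resemble the human splicing factors SPF45 and SR140, which associate with U2, and SWAP1 carries SURP domains of the kind found in other factors of early spliceosome assembly. In Arabidopsis these 3 proteins act in phytochrome-dependent development of the seedling in light.

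The authors' deposited table describes 2 kinds of region. A bin is an exon, an intron or a piece of one, and its log2 fold change states how its read coverage changed relative to that of its gene, given here as triple mutant over swap1sfps. This sign was read from RRC1 and is not proven, since the file header writes the contrast the other way round, and every statement of higher or lower below rests on it. A junction region is a pair of splice sites joined in spliced reads, and its change is a difference of fractions without a sign, so it shows how much use of a junction changed and not in which mutant it was higher. There were 34 bins in 17 loci and 154 junction regions in 146 loci, and 3 loci (RRC1, its neighbour AT5G25050 and EMB3011) had both. Single regions made up 147 of the 160 loci. Of 24197 nuclear loci with an annotated intron, 0.641% held a called region (155 loci). The authors' deposited table does not state how many were tested.

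The sequences that carry the main patterns are given first, all from the TAIR10.1 reference, 5′ to 3′ on the strand of the gene. RRC1 exon 16, the exon with less coverage in the triple mutant, lies at chr5:8634670-8634833 on the minus strand, and its bases are in capitals between the end of intron 15 and the start of intron 16 (window chr5:8634662-8634853).
RRC1 exon 16: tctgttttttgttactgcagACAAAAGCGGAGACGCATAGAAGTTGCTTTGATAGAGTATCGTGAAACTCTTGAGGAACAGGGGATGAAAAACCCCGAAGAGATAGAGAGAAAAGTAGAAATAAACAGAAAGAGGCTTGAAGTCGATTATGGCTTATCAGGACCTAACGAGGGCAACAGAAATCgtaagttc

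The most frequent class was an acceptor shortly downstream of the annotated one. The 6 such acceptors with the largest change, among those in coding sequence and within 30 bases of the annotated site, are shown with both AG pairs in capitals, the annotated one first. Their windows are chr4:10878215-10878247 (plus strand), chr5:19553068-19553105 (minus), chr3:5299922-5299957 (plus), chr5:17820184-17820219 (plus), chr3:8632639-8632676 (minus) and chr2:7591247-7591293 (minus).
VSR7 downstream: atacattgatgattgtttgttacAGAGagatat
ACAT2 downstream: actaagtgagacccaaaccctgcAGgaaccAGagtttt
AT3G15640 downstream: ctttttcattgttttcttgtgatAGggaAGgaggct
ALA2 downstream: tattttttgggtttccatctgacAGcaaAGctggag
AT3G23900 downstream: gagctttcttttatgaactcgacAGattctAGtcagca
MLO8 downstream: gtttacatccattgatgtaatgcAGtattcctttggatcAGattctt

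Fewer acceptors lay upstream, inside the annotated intron. The 2 with the largest change within 100 bases are shown with the called AG first and the annotated AG last, at chr5:4125174-4125272 (plus) and chr2:17462708-17462806 (minus).
EMB3011 upstream: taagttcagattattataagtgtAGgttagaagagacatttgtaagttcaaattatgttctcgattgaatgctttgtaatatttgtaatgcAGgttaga
PGAZAT upstream: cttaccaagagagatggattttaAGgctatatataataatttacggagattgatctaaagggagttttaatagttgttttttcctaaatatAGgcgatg

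RRC1 itself (AT5G25060, chr5:8633114-8640217, minus strand, 17 exons) changed close to its 3′ end. Exon 16 was lower in the triple mutant, at -0.70 log2 units with an FDR of 1.84e-36 in the authors' deposited table. The sign of all bins was read from this exon, so its direction is not a separate result. Intron 15, which lies directly before it (chr5:8634834-8635302), was higher at 0.64 (FDR 6.59e-10). The junction that joins exon 15 to exon 17 and leaves exon 16 out (chr5:8634508-8635303) changed in use by 0.593 (FDR 1.79e-61). Exon 16 is 164 bases long, which is not a multiple of 3, so a transcript without it has a shifted reading frame.

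Values for the same region of RRC1 were alike in red light, in libraries not used in the dark. Exon 16 was at -0.84 (FDR 8.06e-20), intron 15 at 0.86 (FDR 1.21e-19) and the exon-skipping junction at 0.412 (FDR 4.84e-27) in the authors' deposited table for red light. Intron 16 was called in red light as well, at 0.69 (FDR 3.26e-04), and not in the dark. Against WT in the dark, a comparison that shares the triple mutant libraries, the authors' deposited table gives exon 16 at -0.68 and the skipping junction at 0.593. The remaining 15 introns of RRC1 held no called bin between swap1sfps and the triple mutant in the dark. No bin or junction of SWAP1 (AT4G31200) or SFPS (AT1G30480) was called in this comparison.

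**Figure D1:**
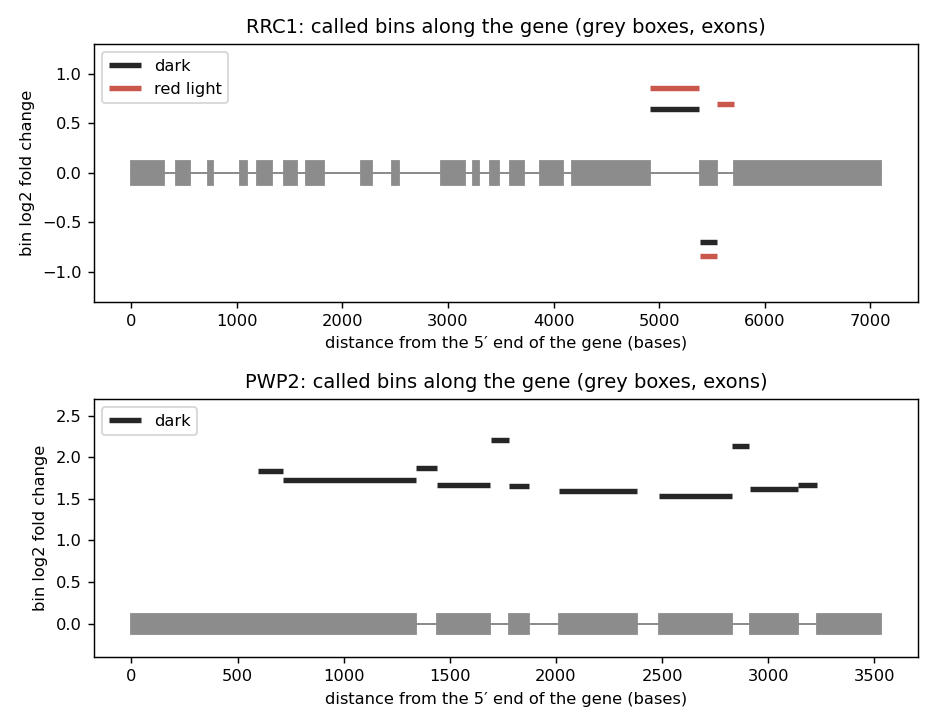
Called bins along RRC1 and PWP2, as the log2 fold change of the triple mutant over swap1sfps (vertical axis) against distance from the 5′ end of the gene in bases (horizontal axis). Grey boxes are exons of 1 RefSeq transcript, black lines are bins called in the dark and red lines bins called in red light. The called bins of RRC1 are exon 16 and the introns beside it, and those of PWP2 lie between its outer ends at values between 1.53 and 2.21, with introns 3 and 4 not called.

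AT5G25050 runs towards RRC1 on the other strand (chr5:8631461-8634027) and overlaps its 3′ end by 914 bases. Its intron 1 was at 0.99 (FDR 0.0231), intron 3 at 0.81 (FDR 0.00313) and intron 4 at 0.83 (FDR 0.0278) in the authors' deposited table, all higher in the triple mutant. An acceptor 7 bases downstream of the annotated end of intron 4 also changed, by 0.302. Of these 4 regions, 2 lie inside the overlap, where reads of both genes cannot be told apart unless the counting used strand, which is not given in the sources used here. Intron 4 was called in red light too, at 1.24 in the authors' deposited table. These introns were also called in the dark against double mutants that already carry rrc1, with the triple mutant libraries shared. Introns 1, 3 and 4 were at 1.17, 1.01 and 0.77 against sfpsrrc1. Against swap1rrc1, introns 3 and 4 were at 0.78 and 0.73, and intron 1 was not called.

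PWP2 (AT1G15440, chr1:5306027-5309558, minus strand) held 11 of the 34 bins, and all 11 were higher in the triple mutant. PWP2 is a WD-repeat protein of the complex that processes the small ribosomal subunit's RNA. Exons 2 to 6 were at 1.67, 1.65, 1.60, 1.53 and 1.62 in the authors' deposited table, in that order. Part of exon 1, called with the lowest FDR among the bins (3.16e-150), was at 1.73, and an alternative intron within exon 1 was at 1.83. Introns 1, 2, 5 and 6 were at 1.87, 2.21, 2.14 and 1.67 in the authors' deposited table. The first part of exon 1, introns 3 and 4 and the last exon were not called, and the outermost called positions were chr1:5306330 and chr1:5308963. A fold change of a bin is relative to its gene. No bin of PWP2 was called between the same triple mutant libraries and WT, swap1rrc1 or sfpsrrc1 in the dark, nor in red light against swap1sfps.

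Among all 18 intron bins, 12 were higher in the triple mutant and 6 lower, which is 66.7% higher with an exact (Clopper-Pearson) 95% interval of 41.0 to 86.7 that covers counting error only. With the sign turned, as the header writes the contrast, it would be 33.3%. Those counts are 0.0088% and 0.0044% of 136306 annotated introns. PWP2 supplied 4 of the 12 and AT5G25050 supplied 3. Counted by locus, 7 loci had higher intron bins and 6 lower. The 16 exon bins were 10 higher and 6 lower, 7 of the 10 in PWP2. Without PWP2, 11 bins were higher and 12 lower.

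**Figure D2:**
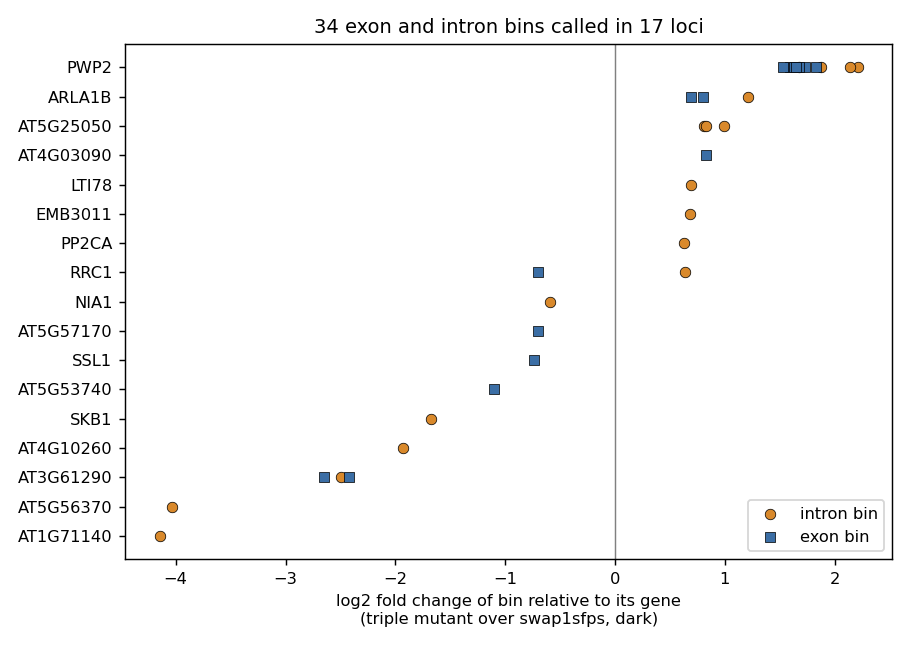
Log2 fold change of each called bin relative to its gene (horizontal axis, triple mutant over swap1sfps in the dark), by gene. Circles are intron bins and squares exon bins. Genes with higher and with lower bins are both present, PWP2 has the most bins, and the lowest values are those of AT1G71140 and AT5G56370.

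Higher introns outside PWP2 and RRC1 included 2 in genes of the response to abscisic acid (ABA) and drought. LTI78 (RD29A), a stress-induced gene, had intron 1 (85 bases) at 0.69 with an FDR of 1.45e-04 in the authors' deposited table. PP2CA, a protein phosphatase that restrains ABA signalling, had intron 3 at 0.63 (FDR 0.0278). EMB3011, the homolog of the yeast splicing helicase PRP16, had intron 9 (297 bases) at 0.68 (FDR 4.64e-07) in the authors' deposited table. The upstream acceptor of EMB3011 printed above lies within this intron, 68 bases before the annotated end, and its change of 0.852 (FDR 1.76e-59) was among the largest of all junctions. Neither region of EMB3011 was called in the red light comparison of the same genotypes. In ARLA1B, an ADP-ribosylation factor-like gene, intron 3 was at 1.21, exon 4 at 0.80 and exon 2 at 0.69 in the authors' deposited table.

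Lower introns were found in 6 loci with 1 bin each. The 2 lowest were intron 4 of AT1G71140, at -4.14 (FDR 0.00613), and intron 2 of AT5G56370, at -4.04 (FDR 0.00954), in the authors' deposited table. AT3G61290 had intron 1 at -2.50, exon 2 at -2.42 and exon 3 at -2.65, the last with an FDR of 2.57e-09, in the authors' deposited table. AT4G10260 had intron 1 at -1.93 and SKB1 intron 10 at -1.68, both with an FDR of 0.0278. SKB1 is PRMT5, the arginine methyltransferase that modifies spliceosomal Sm proteins, and it was the only called gene of the list of other splicing factors. NIA1, a nitrate reductase, had its last intron at -0.60 (FDR 1.70e-04) in the authors' deposited table.

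Exon bins were few outside PWP2. One exon of AT4G03090 (NDX, a homeobox gene), exon 9 of 16, was higher at 0.83 (FDR 9.76e-20) in the authors' deposited table. In SSL1, a strictosidine synthase-like gene, exon 3 of 4 was lower at -0.74 (FDR 8.68e-05), and the same exon was at -0.92 in red light. Exon 3 of AT5G53740 was at -1.10 with an FDR of 0.0298, close to the limit of 0.03 named in the file header. An intron of AT5G57170 that the annotation also counts as exon was at -0.70 with the same FDR.

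Called introns were short, as Arabidopsis introns are in general. The 18 intron bins had a median length of 86.5 bases and ranged from 65 to 674, and 66.7% were under 100 bases, against a median of 102 bases and 47.8% under 100 for all annotated introns. All 18 had the coordinates of an annotated intron. The 20 retained-intron bins, counting 2 filed as exon, all interrupt coding sequence. Keeping the intron leaves the annotated stop codon in use for 2 of them and brings in another stop codon for 18, for 12 of these more than 50 bases before the last exon junction.

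Junctions made up most of the table. By the authors' classes, 121 of the 188 regions were alternative patterns with a junction outside the annotation, 13 were complex patterns of that kind, 10 were alternative 5′ or 3′ sites of that kind, and 10 belonged to a class named IoR. The remaining 34 were the 20 retained introns and 14 exons described above. Junction changes ranged from 0.3, the limit set by the authors, to 0.899, with a median of 0.411, and 40 of 154 were at 0.5 or more. Of the 23 called by their participation among neighbouring junctions, 17 had a change equal to the participation itself in the authors' deposited table.

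Placed on the annotation, 146 of 153 nuclear junctions (95.4%) began with GT and ended with AG. An annotated donor joined to an acceptor outside the annotation accounted for 90 junctions, 58.8% (interval 50.6 to 66.7). An annotated acceptor joined to another donor accounted for 23, or 15% (9.77 to 21.7). In 21 neither end was annotated, 7 joined the outer ends of 2 annotated introns and so left out what lies between, and 5 were annotated introns. Acceptors were therefore 79.6% (71.0 to 86.6) of the 113 junctions with exactly 1 annotated end.

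**Figure D3:**
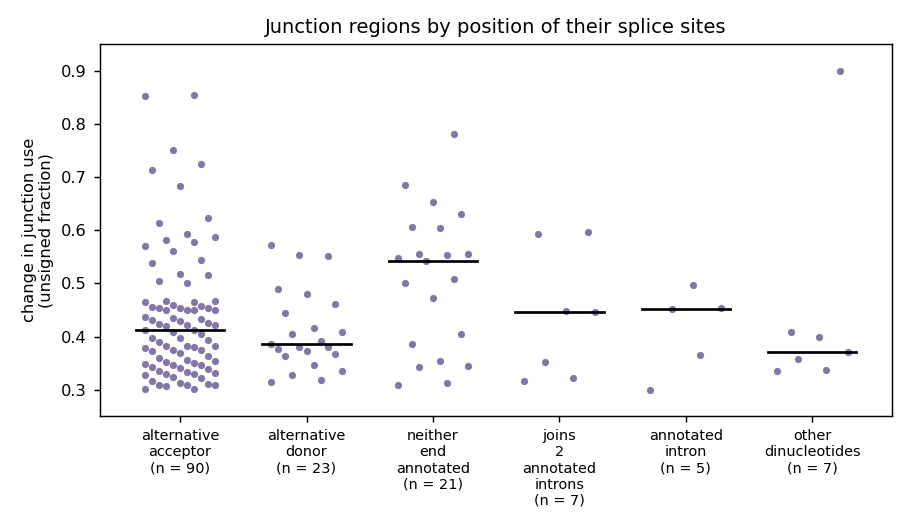
Change in junction use (vertical axis, an unsigned difference of fractions) for each junction region on the nuclear chromosomes, grouped by where its splice sites lie. Points are regions and black lines medians, 0.413 for alternative acceptors and 0.386 for alternative donors, and the highest point is CHUP1 among junctions with other dinucleotides.

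The called acceptor lay downstream of the annotated one, within the exon, in 76 of 90 junctions (84.4%, interval 75.3 to 91.2). Downstream acceptors were close: the median distance was 10 bases, 40 of 76 lay within 10 bases and 62 within 30. The 14 upstream acceptors were farther away, with a median of 75.5 bases and a range of 3 to 370. For 50 of the 76 the called acceptor was the first AG after the annotated one. The pattern can be read in the printed sequences, where only 2 bases (VSR7), 5 bases (AT3G15640 and ALA2) or 7 bases (ACAT2 and AT3G23900) separate the 2 sites.

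The bases before the called acceptors differed from those before the annotated ones. An A preceded the AG in 34.4% of the called acceptors and in 3.33% of their annotated partners. A C preceded it in 37.8% against 62.2%, and a G, the least used base at that position, in 12.2% against 1.11%. All 135447 annotated acceptors had A in 7.40%, C in 63.3% and G in 0.978%. In the 20 bases before that position, the median share of pyrimidines was 55.0% for called acceptors and 60.0% for their partners. The share was lower at the called site in 63 junctions, equal in 9 and higher in 18. Because most called sites lie a few bases downstream, their window overlaps that of the partner and takes in exon sequence. Bases before uncalled AG pairs near annotated acceptors were not counted, so these shares are not shown to be particular to the called sites.

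**Figure D4:**
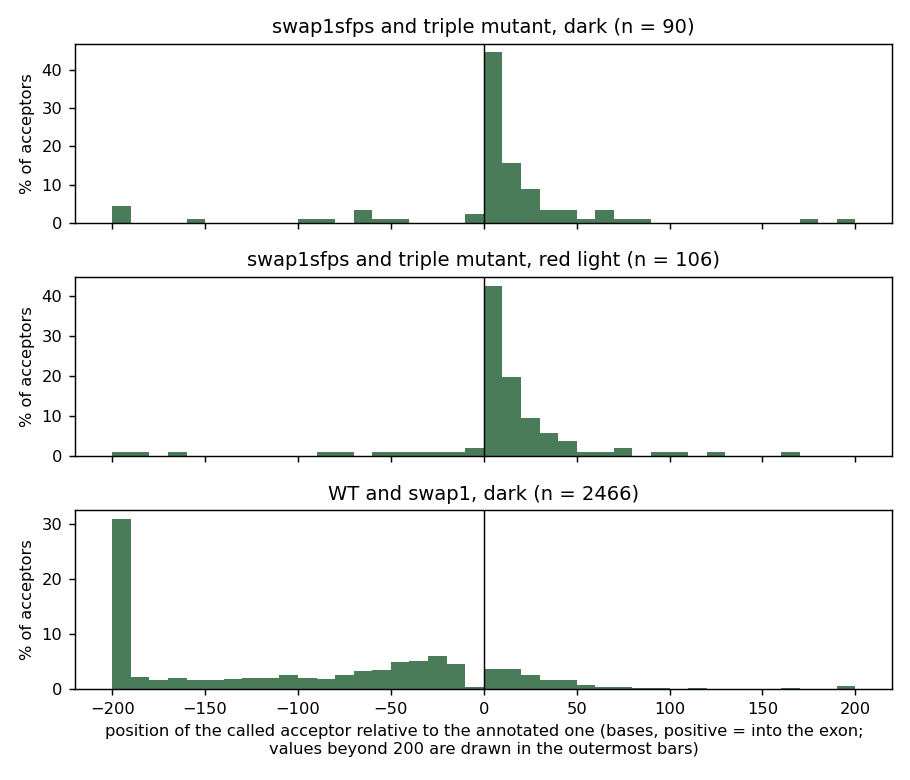
Distance of called alternative acceptors from the annotated one (horizontal axis, bases, positive into the exon) as a percentage of the acceptors in each comparison (vertical axis). The dark comparison (n = 90) and the red light comparison (n = 106) of swap1sfps with the triple mutant peak just downstream of the annotated site, while that of WT with swap1 in the dark (n = 2466) has most of its acceptors upstream.

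Short downstream acceptors were also found in other comparisons of the study. Between the same genotypes in red light, with other libraries, 88.7% (81.1 to 94.0) of 106 acceptors lay downstream, with a median distance of 13 bases as in the dark. Between light conditions in WT, 90.4% of 125 acceptors did so, and in swap1 78.5% of 181. Between swap1rrc1 and the triple mutant, 86.3% of 95 acceptors lay downstream in red light, with a median distance of 12 bases. In the dark, where the triple mutant libraries are shared, 88.1% of 109 did, with the same median. Those comparisons held 215 and 288 called regions. Between WT and swap1 in the dark, where 2466 acceptors were called, 17% (15.6 to 18.6) lay downstream and the median distance was 101 bases. Between sfpsrrc1 and the triple mutant, 23.1% (20.1 to 26.3) of 737 acceptors lay downstream in red light, and 13.9% of 1117 in the dark, where the triple mutant libraries are shared. Comparisons differed in their number of called regions, 223 between the same genotypes in red light, 2007 and 3098 between light conditions in WT and swap1, and 1690 and 2181 between sfpsrrc1 and the triple mutant in red light and the dark. An A before the AG was found in 33.0% of called acceptors between the same genotypes in red light. Between swap1rrc1 and the triple mutant it was found in 38.9% in red light and 35.8% in the dark. The share was 23.2% between light conditions in WT and 21.2% between WT and swap1 in the dark. Intervals cover counting error only, and a difference between comparisons was not tested over libraries.

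The largest junction changes were spread over unrelated genes. ATMS1, a methionine synthase, changed by 0.855 in the authors' deposited table, at an acceptor 6 bases downstream of the end of intron 1. AT2G39805 changed by 0.751 with an acceptor 39 bases downstream in its intron 2. VSR7, a vacuolar sorting receptor, changed by 0.724, ACAT2, which makes acetoacetyl-CoA, by 0.714, and AT3G15640 by 0.682 in the authors' deposited table, at the acceptors printed above. KLCR1, a kinesin light chain-related protein, had a junction of 81 bases with neither end annotated, at 0.685. The junctions of ATMS1, AT2G39805 and AT3G15640 were called at these coordinates in no other comparison of the study. Those of VSR7, ACAT2 and KLCR1 were also called between other genotypes and the same triple mutant libraries.

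Some large changes lie in sequence that is repeated or at junctions without GT and AG ends. CHUP1, which anchors chloroplasts to actin, had the highest value, 0.899 in the authors' deposited table, for a gap of 81 bases that starts with CT and ends with AC and can be moved by 6 bases without changing the spliced sequence. All 7 junctions with other dinucleotides had these CT and AC ends, which read as GT and AG on the other strand. Of the 7, 4 lay in the extensin genes AT3G54580 and EXT13, whose coding sequence is made of repeats. For these 4 the junction could be moved by 14 to 62 bases, and for HRGP1, at 0.653, by 74 bases. In all, 10 of 153 nuclear junctions could be moved by 6 bases or more. AT2G07733 on chromosome 2 (0.781) and the mitochondrial locus ATMG00285 (0.778) changed alike, and the nuclear genome carries a copy of mitochondrial DNA there, so reads may be shared between them.

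The 2 annotated copies of SAE1B, a subunit of the SUMO-activating enzyme, gave a pair of that kind. AT5G50580 changed by 0.548 and AT5G50680 by 0.630 in the authors' deposited table, each with a junction of 94 bases whose ends are not annotated. Their windows, chr5:20585945-20586048 and chr5:20619287-20619390 (both plus), differ at 0 of 104 bases, so a read within them cannot be assigned to 1 copy. The ends of the junction are in capitals.
SAE1B AT5G50580: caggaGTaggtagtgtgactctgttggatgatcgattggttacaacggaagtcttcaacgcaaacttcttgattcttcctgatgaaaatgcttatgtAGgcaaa

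The 7 junctions that ran from the start of 1 annotated intron to the end of another included the one that skips exon 16 of RRC1. RRC1 at 0.593 and ATSTE24, a protease of prenylated proteins, at 0.596 had the largest values in the authors' deposited table. ATGRIP, a Golgi protein, was at 0.446, SPHK2, a sphingosine kinase, at 0.447, PYR6 at 0.352, AT3G55020 at 0.323 and AT1G24240 at 0.317.

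For 84 alternative acceptors the effect on the reading frame could be worked out in a RefSeq transcript. The annotated stop codon stays in use in 20 of them. In 64 another stop codon is met, and in 53 it lies more than 50 bases before the last exon junction. The shift was a multiple of 3 in 25 of all 90, among them AT1G05960 (0.578 in the authors' deposited table) and NRPB1, the largest subunit of RNA polymerase II (0.467), both moved by 3 bases. DET3, a subunit of the vacuolar proton pump whose mutant is de-etiolated in the dark, changed by 0.543 at an acceptor 8 bases downstream, which shifts the frame. For alternative donors the stop codon was kept in 7 of 20.

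Among the 23 alternative donors, 15 lay upstream of the annotated donor and so shortened the exon, with a median distance of 37 bases. The other 8 lay inside the intron at a median of 202 bases. SAMC1, a carrier of S-adenosylmethionine into plastids, changed most, by 0.571 in the authors' deposited table. Both copper/zinc superoxide dismutase genes in the table had an upstream donor in intron 3 that keeps the frame, 15 bases away in CSD1 (0.380) and 24 bases away in CSD3 (0.408). They are shown because they led the authors' ontology terms, with the called GT first and the annotated GT second in capitals, at chr1:2827949-2827983 and chr5:5987933-5987976 (both plus).
CSD1 donor: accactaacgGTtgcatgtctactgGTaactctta
CSD3 donor: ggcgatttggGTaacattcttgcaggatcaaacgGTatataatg

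The authors' gene ontology (GO) table for these genes held 291 terms, 221 of them with 1 gene. At an adjusted p-value of 0.05 or less, 7 terms remained, each with 2 genes and together with 6. CSD1 and CSD3 gave cellular responses to ozone, to UV-B and to light intensity, each with an adjusted p-value of 0.0312 in the authors' deposited table. AAH and UGLYAH, enzymes of ureide breakdown, gave ureide catabolism (0.0312) and 2 purine terms (0.0369). PGAZAT and QRT2, polygalacturonases that loosen cell walls, gave wall modification in abscission (0.0312). These genes were chosen on the same libraries, and no background is named in the authors' deposited table. The junctions of AAH and UGLYAH changed by 0.466 and 0.465, at acceptors 67 and 8 bases downstream, and those of PGAZAT and QRT2 by 0.588 and 0.455.

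Terms with 3 or more genes did not reach 0.05. The lowest were intracellular protein transport with 5 genes and response to sucrose with 3, both at 0.0782, and protein folding with 3 at 0.0814 in the authors' deposited table. The 5 transport genes were VCL1, VPS35B and ATVPS33 (tethering and sorting to the vacuole), SEC1A (membrane fusion) and RAB18 (a Rab GTPase). Their junction changes were 0.364, 0.397, 0.302, 0.450 and 0.381 in the authors' deposited table, 2 at alternative donors and 3 at alternative acceptors. Protein transport (7 genes, 0.108) also held VSR7, VSR4 at 0.382 and GDI2 at 0.50. Response to abscisic acid (6 genes, 0.135), response to salt stress (6 genes, 0.131) and response to cold (5 genes, 0.157) shared LTI78, described above. ABA3 and AAO3, which act in the last steps of ABA synthesis, changed by 0.429 and 0.556. RNA splicing (3 genes, 0.157) comprised RRC1, EMB3011 and CFM2, a chloroplast splicing factor at 0.333. Ubiquitin-dependent protein breakdown (4 genes, 0.227) and chloroplast organization (3 genes, 0.166) completed the 10 lowest in the authors' deposited table.

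Of 132 listed loci of light signalling, splicing, clock and chloroplast genes, the 3 mutated genes among them, 127 have an intron. Of these, 2 (1.57%) held a called region, RRC1 and SKB1 (PRMT5), against 0.641% of all loci with an intron. RRC1 is the gene whose mutation separates the 2 groups, so SKB1 was the only call beyond it. At so low a share few calls are reached in lists of this size, and nothing is read from the lists without one. None of 20 SR proteins, 23 photoreceptor and light signalling genes, 13 negative regulators of photomorphogenesis, 24 clock genes or 23 genes of light harvesting and chlorophyll was called. Of 26 other splicing factors 1 was called, and of the 3 mutated genes 1. Called splicing genes outside the lists included EMB3011 and CFM2. Lhca5, a light-harvesting gene that the lists leave out, was called at an acceptor 50 bases downstream, with a change of 0.413. In addition, 21 listed symbols, among them PRP8A and U2AF65B, were not looked up for want of 1 RefSeq match. A gene without a call is not shown to be spliced alike in both mutants, since the depth is unknown and the tables hold only called regions.

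The dark and red light comparisons of the same genotypes, which share no library, had 7 regions with the same coordinates, 3.72% of 188 in the dark and 3.14% of 223 in red light. By locus, 14 were shared, 8.75% of 160 and 7.11% of 197, where 0.781% of all loci with an intron were called in red light. The 7 regions were 3 of RRC1, exon 3 of SSL1, intron 4 of AT5G25050 and junctions of AT3G09410 and AT3G23600. All 4 bins with a sign had the same sign in both. AT3G09410 changed by 0.354 in darkness and 0.337 in red light in the authors' deposited tables. AT3G23600, at an acceptor 3 bases upstream, changed by 0.375 and 0.441. The other loci shared without a shared region included NIA1, NAI2, RPL18, ATVPS33 and FAAH. The difference between dark and red light could not be tested, since the files hold no error for these values.

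Against WT and swap1 in the dark, also without shared libraries, 3 regions had the same coordinates, 1.60% of 188 and 0.0386% of 7770. GDI2 changed by 0.50 here and 0.314 there, and AT5G23340 by 0.606 and 0.591, in the authors' deposited tables. Exon 3 of AT5G53740 had opposite signs, -1.10 with rrc1 added and 1.59 with swap1 against WT. By locus, 72 of 160 (45.0%) were also called between WT and swap1, where 16.2% of all loci with an intron held a called region. How far expression level sets both shares was not tested.

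Several bins were also called between the same triple mutant libraries and other genotypes in the dark, and those tables share these libraries. Exon 9 of AT4G03090 was at 0.83 against swap1sfps, 0.86 against swap1rrc1 and 0.90 against sfpsrrc1 in the authors' deposited tables. Exon 2 of AT3G61290 was at -2.42 against swap1sfps and -2.57 against swap1rrc1. SSL1 exon 3 was at -0.74, -0.70 and -0.83 against swap1sfps, swap1rrc1 and sfpsrrc1 in turn, and -0.69 against WT. Intron 1 of LTI78 was at 0.69 against swap1sfps, 0.60 against sfpsrrc1 and 1.06 against WT in the authors' deposited tables. Intron 3 of NIA1 was at -0.60 against swap1sfps and -1.03 against WT, and intron 1 of AT4G10260 at -1.93 and -1.92. Junctions recurred too, also against swap1rrc1 and sfpsrrc1, which already carry rrc1. CSD1 (0.380) and HTH (0.604) had the same change against swap1sfps, WT, swap1rrc1 and sfpsrrc1. ACAT2 was at 0.714 against WT and sfpsrrc1 as well, and VSR7 at 0.724 against swap1rrc1. The junctions of RRC1 and EMB3011 were not called against swap1rrc1 or sfpsrrc1. The junction of RRC1 was called against WT, at 0.593. Neither the junction nor intron 9 of EMB3011 was called against WT, so both were called only against swap1sfps. Whether recurring changes come with rrc1 was not tested.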

How the data were processed

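Reads of 150 bp from 36 libraries in 12 groups of 3 were processed by the submitters. Per the submitters' processing notes, the authors used FastQC, STAR, HTSeq, DESeq2 and the build TAIR10, and the design text names ASpli 2.0; versions of the others are not stated in these sources. Per the file headers, the authors' deposited tables give bins a log2 fold change and an FDR (an adjusted p-value), and junctions an FDR, a likelihood ratio score and a change as a fraction. The headers name a bin fold of 1.5, a bin FDR of 0.03, a junction FDR of 0.01 and a junction change of 0.3. Per the file headers, each GO term has the authors' count of genes, adjusted p-value and enrichment ratio.

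Only called regions are held, with no library values, so calls were counted with exact 95% intervals and no test over libraries was made. The header writes the contrast as first minus second group. The sign was read as triple mutant over swap1sfps from RRC1 and not proven: exon 16 is lower where the junction that skips it has the same change, 0.593, against swap1sfps and against WT.

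Junctions were placed on RefSeq TAIR10.1 (TAIR10 coordinates, nuclear only; 187 of 187 nuclear regions lay within their locus) by Python 3 scripts checked on simulated junctions, with SciPy for intervals. Shifts were measured to the nearest annotated site, and reading frames in 1 RefSeq transcript. Of 154 list symbols, 133 matched 1 locus by RefSeq symbol or synonym (4 by hand) and 21 were left out, PRP3 and PRP4 because RefSeq gives those symbols to cell wall proteins; loci were counted once. Named genes were the 3 mutated genes, the 10 highest and 10 lowest bins, the 10 largest junction changes, regions called in both lights, called list members and the 10 GO terms of lowest p-value with at least 3 genes; others were chosen after their values were seen. The members and lists were chosen with earlier results of these data known.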

Additional observations from a re-analysis of the deposited data

How the results depend on the processing

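Of 24 alternative values, 20 moved by less than their interval or by less than 1.5 times. Regions also called in red light rose from 7 to 11 when any overlap of 1 base counted and to 14 by locus, and those also called between WT and swap1 in the dark from 3 to 72 by locus, because these rules ask for less. The share of intron bins higher in the triple mutant ran from 50% (absolute log2 fold change of at least 1) through 53.8% (1 bin per locus) to 66.7%, and was 57.1% without PWP2, an alternative chosen after seeing the data, as were those for acceptors. With the sign turned as the header writes the contrast, also chosen after seeing the data, it was 33.3%, because higher and lower change places. The share of acceptors downstream ran from 83.3% to 89.6%. Regions numbered 180 at an FDR of 0.01 or less and 176 without junctions in movable or mitochondrial sequence. No paired analysis was possible because the files hold no value per library, and leaving out each replicate was not run for the same reason. Unknown depth limits all statements about regions that were not called.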
